A study of Mus musculus with 11 samples.

Results

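The guanylate-binding proteins (GBPs) measured here are 9 mouse genes, *Gbp2* to *Gbp10*, taken by Ensembl identifier from 52636 genes counted in fetal liver RNA. They lie in 2 clusters, with 4 genes on chromosome 3 and 5 on chromosome 5, and all 9 passed the filter on low counts. RNA was sequenced from 11 untreated livers of mouse embryos at E15.5, each library from a single liver. There were 3 wild-type (WT) livers, 2 *Tnfr1*-/- livers that lack the TNF receptor TNFR1, 3 *Casp8*-/- *Mlkl*-/- livers that lack caspase-8 and the necroptosis effector MLKL, and 3 *Casp8*-/- *Tnfr1*-/- livers that lack caspase-8 and TNFR1. The deletions are germline deletions on a C57BL/6N background, so they are shared by every cell of the liver. Caspase-8 restrains necroptosis, a lytic form of cell death, and the comparisons ask how GBP expression differs when caspase-8 is absent together with TNFR1 or with MLKL. Whether livers of a genotype came from 1 litter is not given in the sources used here, and p values measure the spread between these livers only.

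GBPs are large GTPases of the dynamin superfamily. Interferon-gamma, and to a lesser degree type I interferons, induce their genes, in part through the transcription factor IRF1, and macrophages and many non-immune cells respond in this way. The proteins gather on vacuoles and membranes of intracellular bacteria and parasites, help to break them open, and bring lipopolysaccharide to caspase-11, which starts the non-canonical inflammasome. They work beside a second family of interferon-induced GTPases, the immunity-related GTPases (IRGs), and some of them are anchored to membranes by prenylation.

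On GRCm38 the chromosome 3 cluster runs, on the plus strand, through *Gbp5* (142493978 to 142522344, ENSMUSG00000105504), *Gbp7* (142530342 to 142550149, ENSMUSG00000040253), *Gbp3* (142560026 to 142573209, ENSMUSG00000028268) and *Gbp2* (142620602 to 142638008, ENSMUSG00000028270). The chromosome 5 cluster runs on the minus strand through *Gbp8* (105014150 to 105139540, ENSMUSG00000034438), *Gbp9* (105077630 to 105139539, ENSMUSG00000029298), *Gbp4* (105115767 to 105139586, ENSMUSG00000079363), *Gbp10* (105215699 to 105239533, ENSMUSG00000105096) and *Gbp6* (105270702 to 105293698, ENSMUSG00000104713). *Gbp8*, *Gbp9* and *Gbp4* start at almost the same position and share 60 to 61 bases of their first exons. *Gbp10* and *Gbp6* are near copies, so their reads are hard to assign. Of the 50-base stretches of *Gbp10*, 73.3% are also found in *Gbp6*, and 45.9% of those of *Gbp6* are found in *Gbp10*. For *Gbp8* 12.9% of stretches recur elsewhere in annotated genes, and for the 6 other members the share is between 1.44 and 6.54%. *Gm43302* overlaps 46.3% of the exon bases of *Gbp10* and 29.0% of those of *Gbp6* on the same strand and was listed at 0 in every liver. Only uniquely mapped reads were used, so counts of *Gbp10* and *Gbp6* are uncertain, and values of the other members rest mainly on sequence of their own.

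The 200 bases before the RefSeq start site are shown for the chromosome 3 genes only, because the RefSeq sequences used here held no windows for the chromosome 5 genes. Each holds the letters of the interferon-stimulated response element (ISRE) core, GAAANNGAAA or its reverse TTTCNNTTTC, and capitals mark these letters and those of the gamma-activated site (GAS), TTCNNNGAA, a motif of promoters that respond to interferon-gamma. *Gbp2b*, formerly called *Gbp1*, lies between *Gbp3* and *Gbp2* and is shown as a neighbour outside the 9 members. Both strands were searched, and sequences and positions are those of RefSeq on GRCm38.p6.
Gbp5, chr3:142496734-142496933, plus strand: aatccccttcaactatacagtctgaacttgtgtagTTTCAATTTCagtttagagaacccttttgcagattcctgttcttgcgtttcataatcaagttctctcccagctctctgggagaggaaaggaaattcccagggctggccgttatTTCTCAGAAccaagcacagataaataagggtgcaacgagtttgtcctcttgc
Gbp7, chr3:142530136-142530335, plus strand: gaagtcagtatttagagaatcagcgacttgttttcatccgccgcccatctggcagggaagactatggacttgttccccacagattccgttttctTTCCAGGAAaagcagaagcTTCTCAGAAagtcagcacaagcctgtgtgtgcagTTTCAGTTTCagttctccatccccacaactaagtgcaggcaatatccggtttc
Gbp3, chr3:142559844-142560043, plus strand: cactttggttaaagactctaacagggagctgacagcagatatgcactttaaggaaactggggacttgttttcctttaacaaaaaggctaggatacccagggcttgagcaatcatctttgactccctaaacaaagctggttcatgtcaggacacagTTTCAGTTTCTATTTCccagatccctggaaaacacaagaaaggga
Gbp2b, chr3:142594647-142594846, plus strand: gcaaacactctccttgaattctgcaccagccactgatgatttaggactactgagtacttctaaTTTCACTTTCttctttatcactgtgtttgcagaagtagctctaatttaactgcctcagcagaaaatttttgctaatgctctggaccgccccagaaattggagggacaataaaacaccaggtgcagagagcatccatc
Gbp2, chr3:142620463-142620662, plus strand: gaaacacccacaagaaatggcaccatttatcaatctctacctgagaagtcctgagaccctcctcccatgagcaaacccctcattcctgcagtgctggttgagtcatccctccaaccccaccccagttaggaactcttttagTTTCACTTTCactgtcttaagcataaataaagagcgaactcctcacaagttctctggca

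The ISRE letters begin 53 bases before the start site in *Gbp7*, 59 in *Gbp2*, 45 and 39 (overlapping matches) in *Gbp3* and 137 in *Gbp2b*, and in *Gbp5* they lie farther away than in the others. *Gbp3* has another RefSeq start site whose window holds neither motif. GAS letters were found in *Gbp5*, at 52 bases before the start site and at 245 bases, outside the stretch shown, and in *Gbp7*, at 106 and 87 bases. Of 32851 promoter windows of 300 bases, 3.44% hold the ISRE core and 8.3% the GAS letters. A match is a run of letters and not a measured binding site, and no promoter sequence of the chromosome 5 members was used.

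Each library had 23129212 to 35819339 reads on genes. Values are given as CPM, reads scaled to the size of the library with TMM factors. The summed CPM of 10 hepatocyte markers was 53900 to 238000 and that of 10 erythroid markers 20300 to 50500, so both main lineages of fetal liver were present in every library. The highest hepatocyte sum was in replicate 1 of *Casp8*-/- *Mlkl*-/-, against at most 112000 in the others, and the highest erythroid sum in replicate 3 of *Casp8*-/- *Tnfr1*-/-, against at most 31100. *Casp8* measured 27.7 to 33.9 CPM in WT and *Tnfr1*-/- livers, 7.82 to 10.2 CPM in *Casp8*-/- *Mlkl*-/- livers and 11.5 to 21.9 CPM where TNFR1 was lacking too. In *Casp8*-/- *Mlkl*-/- livers *Mlkl* was at 0.73 to 1.22 CPM against 4.23 to 4.46 CPM in WT. *Tnfrsf1a*, the gene for TNFR1, was at 49.8 to 50.5 CPM in *Tnfr1*-/- livers, 47.1 to 53.4 CPM in WT and, above both, 76.0 to 425.0 CPM in *Casp8*-/- *Tnfr1*-/- livers. Reads summed over all its exons therefore cannot serve as a check of the *Tnfr1* genotype. Replicate 3 of *Casp8*-/- *Tnfr1*-/- and replicate 1 of *Casp8*-/- *Mlkl*-/- stood apart, with TMM factors of 0.758 and 0.812 against 1.01 to 1.09 in the others. The former liver also held 1650 CPM of 12 striated muscle genes, against 15.0 to 37.1 CPM elsewhere.

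GBP expression was highest in *Casp8*-/- *Tnfr1*-/- livers and rose in both clusters. Against WT, 7 of 9 GBP genes were higher at an adjusted p under 0.05 in edgeR's quasi-likelihood test, and none was lower. They were *Gbp2*, *Gbp3*, *Gbp5* and *Gbp7* on chromosome 3 and *Gbp4*, *Gbp6* and *Gbp9* on chromosome 5, with log2 fold changes from 2.74 to 3.37. Of all 17243 genes tested, 5.1% were called higher and 0.702% lower. The median log2 fold change over the 9 members was 3.0, while that over all genes was within 0.03 of 0 in each of the 5 comparisons. *Gbp8* did not follow, and *Gbp10*, the member with the fewest reads, was not called. In a bulk liver, fewer or more cells of a type and less or more RNA per cell cannot be told apart.

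**Figure D1:**
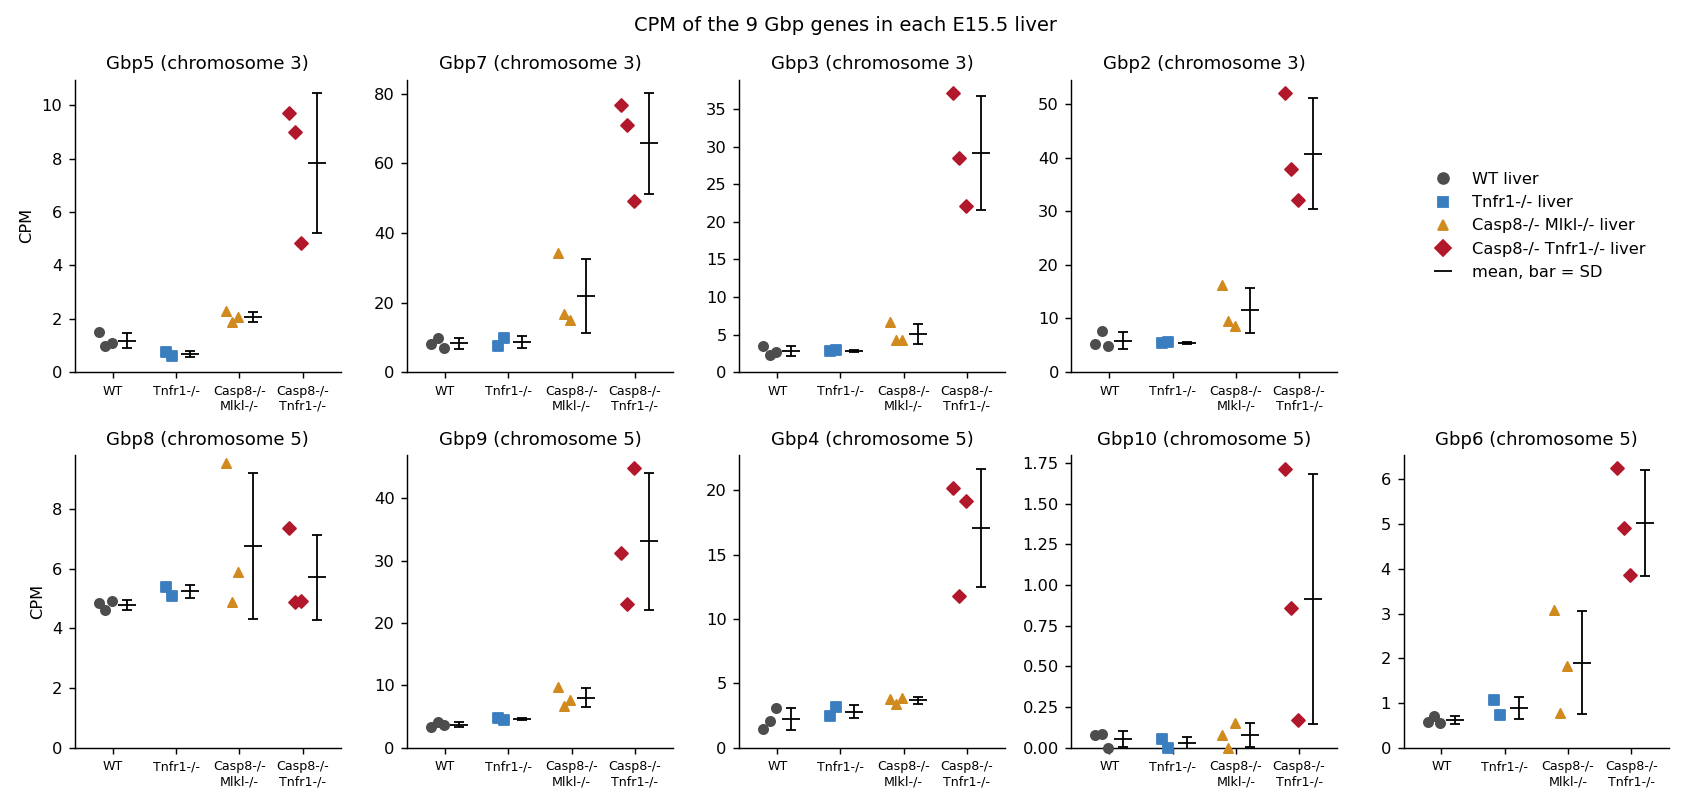
CPM (linear axes from 0) of each GBP gene in the 11 livers, 1 point per liver, with the mean and SD of each genotype beside the points (bars cut at 0). The upper row holds the chromosome 3 genes and the lower row the chromosome 5 genes. In all panels but those of *Gbp8* and *Gbp10* the 3 *Casp8*-/- *Tnfr1*-/- livers lie above all 8 others, as they do for 7.43% of all genes tested. In the panel of *Gbp6* the lowest of them, at 3.87 CPM, is close to a *Casp8*-/- *Mlkl*-/- liver at 3.08 CPM. In the panel of *Gbp8* the *Casp8*-/- *Tnfr1*-/- livers overlap the others. *Gbp10*, which passed the filter only through these livers, is separated by a small margin (0.171 against 0.153 CPM).

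*Gbp3* had the highest fold change of the chromosome 3 cluster against WT. It was at 3.5, 2.26 and 2.68 CPM in the WT livers, 2.76 and 2.89 in *Tnfr1*-/-, 6.61, 4.27 and 4.24 in *Casp8*-/- *Mlkl*-/-, and 37.2, 28.5 and 22.1 in *Casp8*-/- *Tnfr1*-/-. Every *Casp8*-/- *Tnfr1*-/- liver was above every other liver, and the lowest of them was well above the highest *Casp8*-/- *Mlkl*-/- liver. The log2 fold change against WT was 3.37 ± 0.285 (SE; edgeR adjusted p = 0.0002).

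*Gbp2*, which is recruited to the vacuole of *Toxoplasma gondii*, had the highest mean level per length in each genotype. *Gbp8* was above it in WT replicate 3 and *Tnfr1*-/- replicate 1. Its CPM was 5.19, 7.63 and 4.81 in WT, 5.33 and 5.55 in *Tnfr1*-/-, 16.3, 9.5 and 8.68 in *Casp8*-/- *Mlkl*-/-, and 52.2, 38.0 and 32.1 in *Casp8*-/- *Tnfr1*-/- livers. WT and *Tnfr1*-/- livers overlap, and the *Casp8*-/- *Mlkl*-/- livers lie above both and below the *Casp8*-/- *Tnfr1*-/- livers. Against WT the log2 fold change was 2.80 ± 0.307 (SE; edgeR adjusted p = 0.000939).

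*Gbp7*, which binds NADPH oxidase and autophagy proteins on bacterial vacuoles, had the highest counts of the family. It measured 7.95, 9.89 and 6.78 CPM in WT, 7.39 and 9.76 in *Tnfr1*-/-, 34.1, 16.6 and 14.9 in *Casp8*-/- *Mlkl*-/-, and 76.9, 71.1 and 49.3 in *Casp8*-/- *Tnfr1*-/- livers. All *Casp8*-/- *Mlkl*-/- livers were above all WT livers and below all *Casp8*-/- *Tnfr1*-/- livers, and replicate 1 of *Casp8*-/- *Mlkl*-/-, a liver with a low TMM factor, was the highest of its genotype. The log2 fold change in *Casp8*-/- *Tnfr1*-/- against WT was 3.0 ± 0.344 (SE; edgeR adjusted p = 0.00113).

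*Gbp5*, which promotes assembly of the NLRP3 inflammasome, was the lowest of the chromosome 3 cluster. Its CPM was 1.5, 0.964 and 1.07 in WT, 0.766 and 0.608 in *Tnfr1*-/-, 2.27, 1.89 and 2.06 in *Casp8*-/- *Mlkl*-/-, and 9.7, 8.98 and 4.84 in *Casp8*-/- *Tnfr1*-/- livers. The 4 genotypes do not overlap for this gene. *Tnfr1*-/- livers were the lowest, and their log2 fold change of -0.77 against WT was not called (95% interval -1.59 to 0.05, edgeR adjusted p = 1.0). In *Casp8*-/- *Tnfr1*-/- livers *Gbp5* rose by a log2 fold change of 2.74 ± 0.324 against WT (SE; edgeR adjusted p = 0.00136).

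On chromosome 5, *Gbp9* and *Gbp4* rose as well. *Gbp9* measured 3.3, 4.15 and 3.59 CPM in WT, 4.79 and 4.52 in *Tnfr1*-/-, 9.69, 6.71 and 7.64 in *Casp8*-/- *Mlkl*-/-, and 31.3, 23.1 and 44.8 in *Casp8*-/- *Tnfr1*-/- livers. *Gbp4*, an inhibitor of IRF7 signaling in virus infection, measured 1.46, 2.1 and 3.12 CPM in WT, 2.43 and 3.15 in *Tnfr1*-/-, 3.77, 3.4 and 3.9 in *Casp8*-/- *Mlkl*-/-, and 20.2, 11.8 and 19.2 in *Casp8*-/- *Tnfr1*-/- livers. For both genes the *Casp8*-/- *Tnfr1*-/- livers were above all others, but the order of these 3 livers differed from that of the chromosome 3 genes, which were all highest in replicate 1 and lowest in replicate 3. Against WT the log2 fold change was 3.17 ± 0.268 for *Gbp9* (SE; edgeR adjusted p = 0.0002). For *Gbp4* it was 2.94 ± 0.32 (SE; edgeR adjusted p = 0.000876).

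*Gbp6* and *Gbp10*, the near copies, were low. *Gbp6* had 14 to 17 reads per WT liver, 19 and 39 in *Tnfr1*-/-, 27 to 76 in *Casp8*-/- *Mlkl*-/- and 68 to 205 in *Casp8*-/- *Tnfr1*-/- livers, which gave 0.552 to 0.713, 0.722 and 1.07, 0.785 to 3.08 and 3.87 to 6.25 CPM. The *Casp8*-/- *Tnfr1*-/- livers were the highest, with replicate 1 of *Casp8*-/- *Mlkl*-/- at 3.08 CPM close to the lowest of them. The log2 fold change against WT was 3.03 ± 0.479 (SE; edgeR adjusted p = 0.00665). *Gbp10* had at most 4 reads in any liver outside *Casp8*-/- *Tnfr1*-/-, and 56, 25 and 3 reads in the *Casp8*-/- *Tnfr1*-/- livers. Summed over livers this is 84 reads against 4 in WT, a CPM-scaled ratio of 19.9 with a 95% counting interval of 7.49 to 74.8 that covers counting error only. *Gbp10* reached 10 reads in 2 livers only, both *Casp8*-/- *Tnfr1*-/-, so it passed the filter through the group in which it was high. Its adjusted p was 0.07 against WT, 0.134 against *Tnfr1*-/- and 0.157 against *Casp8*-/- *Mlkl*-/- in edgeR. Summing the 2 genes left all 7 calls against WT in place.

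*Gbp8* showed no detectable difference. Its CPM was 4.84, 4.61 and 4.93 in WT, 5.39 and 5.09 in *Tnfr1*-/-, 9.53, 4.88 and 5.89 in *Casp8*-/- *Mlkl*-/-, and 7.35, 4.89 and 4.9 in *Casp8*-/- *Tnfr1*-/- livers. WT livers were below both *Tnfr1*-/- livers, the livers of the other 2 genotypes overlap both, and the highest value was in replicate 1 of *Casp8*-/- *Mlkl*-/-. The log2 fold change was 0.26 against WT (95% interval -0.36 to 0.87, edgeR adjusted p = 0.566), 0.13 against *Tnfr1*-/- (-0.56 to 0.81) and -0.24 against *Casp8*-/- *Mlkl*-/- (-0.85 to 0.37). The upper bound of 0.87 against WT is below the lower bound of each of the 7 members called, the lowest of which is 1.96 for *Gbp6*. *Gbp8* was not low, with 86 to 241 reads per liver.

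*Gbp8* shares the start of its first exon with *Gbp9* and *Gbp4*, and the ratio between these neighbours shifted. Scaled by length, *Gbp9* was at 0.378 to 0.497 of the *Gbp8* level in WT livers, 0.493 in both *Tnfr1*-/- livers and 0.563 to 0.759 in those of *Casp8*-/- *Mlkl*-/-. In *Casp8*-/- *Tnfr1*-/- livers it was at 2.36, 2.62 and 5.08 times the *Gbp8* level. *Gbp4* was at 0.163 to 0.376 of it in the 8 other livers and at 1.3 to 2.13 in *Casp8*-/- *Tnfr1*-/- livers. The neighbours thus crossed: *Gbp8* was above both in every liver outside *Casp8*-/- *Tnfr1*-/-, and below both in each *Casp8*-/- *Tnfr1*-/- liver.

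Without a model, in a two-sided exact permutation test on the mean log2 CPM of the 3 *Casp8*-/- *Tnfr1*-/- livers and the 8 others, the 7 members called against WT each reached an unadjusted p = 0.00606, the smallest that all splits of 3 and 8 livers can give, and *Gbp8* had p = 0.921. For these 7 members every *Casp8*-/- *Tnfr1*-/- liver lay above all 8 others, as it did for 7.43% of all genes tested. *Gbp10* is left out of this count because it passed the filter only through *Casp8*-/- *Tnfr1*-/- livers. Its groups were separated by a small margin, with 0.171 CPM in replicate 3 against 0.153 CPM in a *Casp8*-/- *Mlkl*-/- liver. In that replicate its 3 reads are at the limit of what the depth can show.

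**Figure D2:**
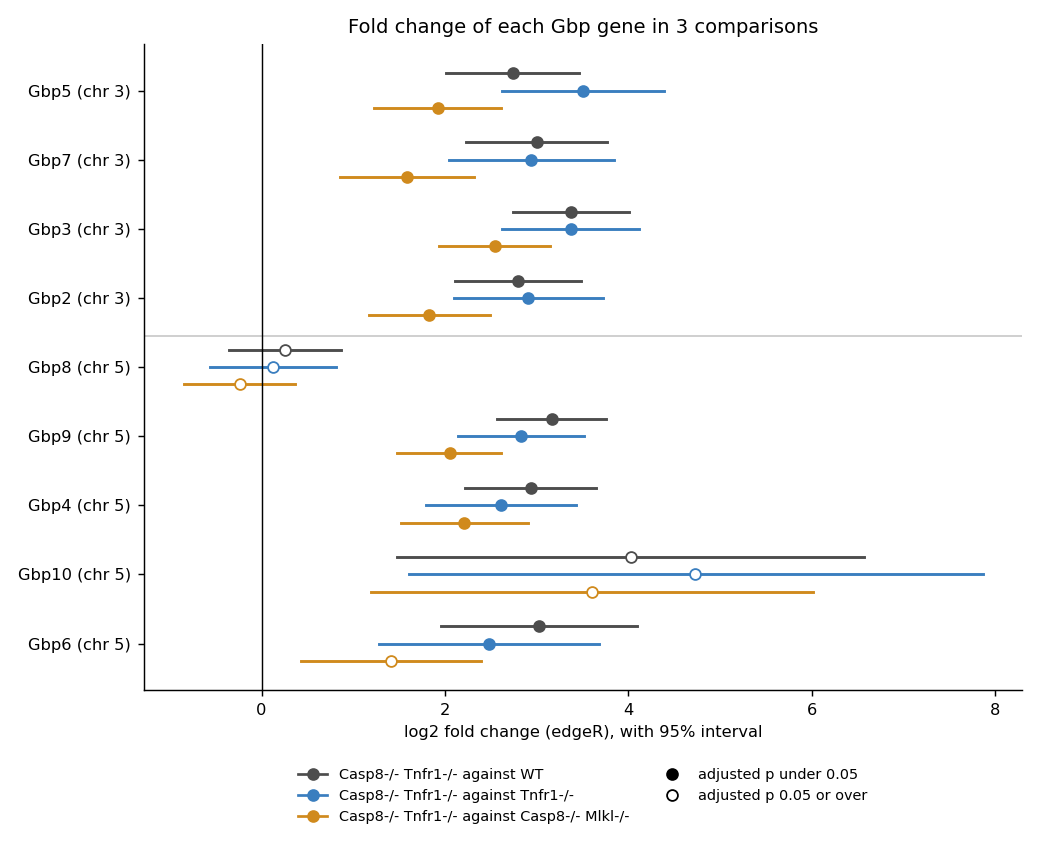
Log2 fold change of each GBP gene in *Casp8*-/- *Tnfr1*-/- livers against WT, *Tnfr1*-/- and *Casp8*-/- *Mlkl*-/- livers, with 95% intervals from edgeR; filled points passed an adjusted p of 0.05. The 3 comparisons share the *Casp8*-/- *Tnfr1*-/- livers. Intervals of *Gbp8* cover 0 in all 3 comparisons, and those against *Casp8*-/- *Mlkl*-/- lie lowest for every gene.

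Against *Tnfr1*-/- livers, which share the receptor deletion, the same 7 genes were called higher, with log2 fold changes from 2.48 for *Gbp6* (edgeR adjusted p = 0.0478) to 3.50 for *Gbp5* (adjusted p = 0.00207). Of all genes tested, 2.05% were called higher and 0.122% lower, and none of the 9 members was lower. The comparison rests on 2 *Tnfr1*-/- livers. Without replicate 1 or replicate 2 of *Tnfr1*-/- a single liver is left in that group, so only effect sizes are given for these fits. The lone *Tnfr1*-/- liver is then assumed to vary like the other genotypes, and the median log2 fold change of the members was 2.85 and 2.93, against 2.91 with both. With only these 5 livers in the fit, 2 members and 53 of 16780 genes were called higher, and the median log2 fold change of the members was 2.91. With all livers, DESeq2 called 8 members and 1107 of 17243 genes higher, limma-voom 7 and 367, and limma-voom with quality weights 8 and 2511. The counts of 8 include *Gbp10*, which passed the filter only through *Casp8*-/- *Tnfr1*-/- livers.

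Against *Casp8*-/- *Mlkl*-/- livers, 6 of 9 members were called higher, while 1.54% of all genes were higher and 0.116% lower, none of them a member. The log2 fold changes were 2.54 for *Gbp3*, 2.21 for *Gbp4*, 2.05 for *Gbp9*, 1.92 for *Gbp5*, 1.83 for *Gbp2* and 1.59 for *Gbp7* (edgeR adjusted p = 0.00196, 0.00746, 0.00446, 0.0161, 0.016 and 0.0439). *Gbp6* had a log2 fold change of 1.41 and was not called (edgeR adjusted p = 0.172). The count depends on the libraries in the fit. It was 2 without replicate 2 of *Casp8*-/- *Mlkl*-/-, where 71 genes were called higher, and 3 without replicate 3, where 73 were. With only the 6 livers compared it was 0 of 8 members tested, and 10 of 16353 genes were called higher. The median log2 fold change of the members was 1.87, 1.93 and 1.88 in these fits, against 1.92 with all livers. DESeq2 called 7 members and 785 of 17243 genes higher, limma-voom 6 and 290, and limma-voom with quality weights 8 and 1894. Leaving out both livers with low TMM factors gave 8 members and 2032 of 16958 genes. The counts of 8 include *Gbp10*, which passed the filter only through *Casp8*-/- *Tnfr1*-/- livers.

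*Casp8*-/- *Mlkl*-/- livers gave values above WT that did not pass the test. All 9 log2 fold changes were above 0, from 0.43 for *Gbp10* to 1.62 for *Gbp6*, with a median of 0.84. In edgeR none of the 9 was called, against 0.0058% of all genes (1 gene), and 7 of 9 had an unadjusted p under 0.05 in the direction of higher expression, as had 4.11% of all genes. The smallest p values were those of *Gbp9* (log2 fold change 1.12 ± 0.253 SE, edgeR adjusted p = 0.45) and *Gbp7* (1.41 ± 0.328 SE, adjusted p = 0.475). DESeq2 and limma-voom with quality weights each called these 2 members, and limma-voom called none. Of 17243 genes, DESeq2 called 79 higher, limma-voom with quality weights 551 and limma-voom 1. *Gbp7* and *Gbp9* were above all WT livers in each of the 3 *Casp8*-/- *Mlkl*-/- livers, and this includes both livers with ordinary TMM factors. The increase was largest in replicate 1, the liver with the TMM factor of 0.812, for each member but *Gbp4* and *Gbp10*. In this liver the hepatocyte markers summed to 238000 CPM, against 53900 and 64500 CPM in the other 2 livers of the genotype, and their part in the GBP values was not tested. Without this liver the median log2 fold change of the 9 members was 0.71.

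*Tnfr1*-/- and WT livers showed no detectable difference in any member. No member was called by edgeR, 0.0% of all genes were called higher, and no member had an unadjusted p under 0.05, a level passed by 0.684% of genes in the direction of higher expression. DESeq2, limma-voom and limma-voom with quality weights called no member either, and of 17243 genes they called 0, 0 and 150 higher. With only these 2 genotypes in the edgeR fit, 0 of 8 members tested and 138 of 16234 genes were called higher. The median log2 fold change of the 9 members was 0.06. For *Gbp7* the 95% interval was -0.75 to 0.87, for *Gbp6* -0.61 to 1.7 and for *Gbp10*, with few reads, -4.53 to 3.11. Changes within these intervals could not have been told from 0.

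Per kb of gene width, the 9 members summed to 8.06 to 9.42 CPM per kb in WT, 8.82 and 9.15 in *Tnfr1*-/-, 13.3, 13.9 and 23.6 in *Casp8*-/- *Mlkl*-/- and 48.2 to 67.2 in *Casp8*-/- *Tnfr1*-/- livers. In WT the order of levels was *Gbp2* (2.34 ± 0.608 CPM per kb, SD, n = 3), *Gbp8* (1.95 ± 0.067), *Gbp7* (1.46 ± 0.28), *Gbp3* (0.921 ± 0.205), *Gbp9* (0.829 ± 0.097), *Gbp4* (0.49 ± 0.184), *Gbp5* (0.385 ± 0.0928), *Gbp6* (0.236 ± 0.0332) and *Gbp10* (0.0152 ± 0.0132). The ranges of *Gbp2* and *Gbp8*, of *Gbp3* and *Gbp9* and of *Gbp4* and *Gbp5* overlap, and other neighbours in this order do not. In *Casp8*-/- *Tnfr1*-/- livers the order was *Gbp2* (16.2 ± 4.1 CPM per kb, SD, n = 3), *Gbp7* (11.7 ± 2.59), *Gbp3* (9.57 ± 2.48), *Gbp9* (7.45 ± 2.47), *Gbp4* (3.76 ± 1.01), *Gbp5* (2.57 ± 0.858), *Gbp8* (2.32 ± 0.577), *Gbp6* (1.93 ± 0.458) and *Gbp10* (0.259 ± 0.218). There the ranges of neighbours from *Gbp2* to *Gbp9* overlap, as do those from *Gbp4* to *Gbp6*, and *Gbp9* lies above *Gbp4* in every liver. Within each single liver *Gbp2* was also above *Gbp7*, and *Gbp7* above *Gbp3*, while *Gbp3* was below *Gbp9* in replicate 3. *Gbp8* made up 22.7% of the summed level in WT and 4.14% in *Casp8*-/- *Tnfr1*-/- livers, and *Gbp2* 26.8% and 28.8%. Widths are those deposited, which are shorter than the exons of GENCODE M21 for all members but *Gbp2* and *Gbp7*.

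**Figure D3:**
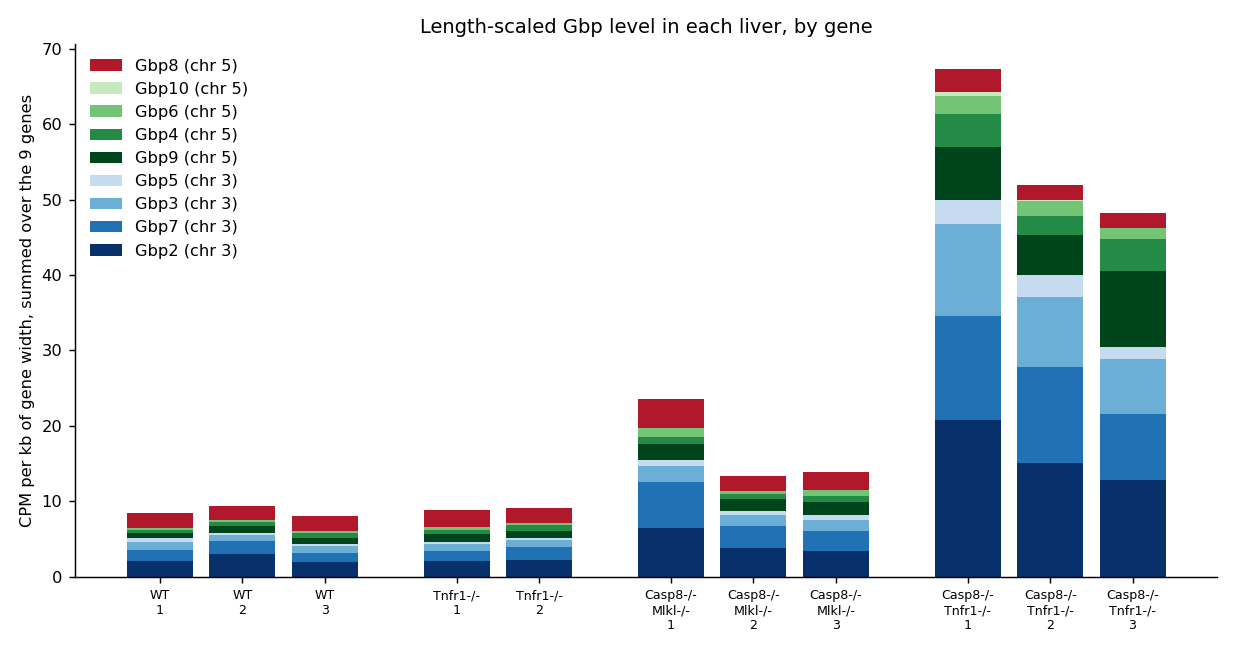
CPM per kb of gene width in each liver (bars from 0), stacked by gene, with chromosome 3 genes in blue, chromosome 5 genes in green and *Gbp8* in red. The stack reaches 48.2 to 67.2 CPM per kb in *Casp8*-/- *Tnfr1*-/- livers and at most 23.6 elsewhere, and the red segment is of like height in every genotype.

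The clusters were compared by the mean of their members' log2 CPM in each liver, relative to the WT mean. The 4 chromosome 3 genes stood at 3.28, 3.01 and 2.51 in the *Casp8*-/- *Tnfr1*-/- livers, and the 5 chromosome 5 genes at 2.80, 2.19 and 2.06. The difference, chromosome 3 minus chromosome 5, was 0.48, 0.82 and 0.44 in these livers and between -0.51 and 0.53 in the 8 others, so the ranges overlap. Without *Gbp8* the difference was -0.07, 0.28 and -0.07, within the range of the other livers. Leaving out the member with no detectable difference raises the chromosome 5 mean of the *Casp8*-/- *Tnfr1*-/- livers by construction. That mean still holds *Gbp10*, which passed the filter only through these livers and had 56, 25 and 3 reads in them. A comparison of the clusters without *Gbp10* was not made. Called higher against WT were 4 of 4 members on chromosome 3 and 3 of 5 on chromosome 5, and against *Casp8*-/- *Mlkl*-/- 4 of 4 and 2 of 5. Of all genes tested, 5.1% and 1.54% were called higher in these comparisons. *Gbp10* is among the uncalled members, and with so few reads a change in it was hard to call. These are descriptions with no test.

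**Figure D4:**
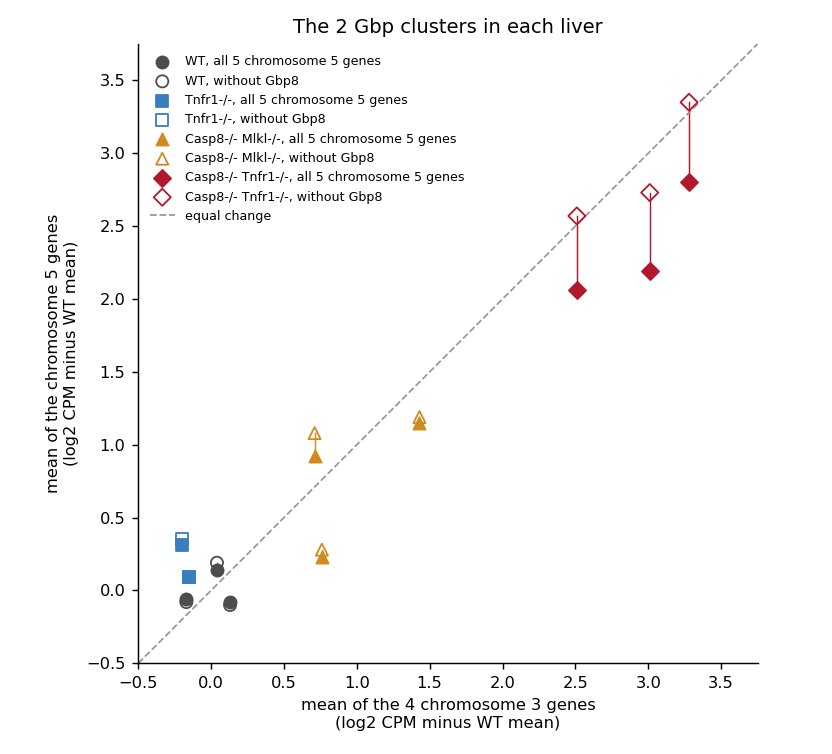
Mean log2 CPM of the chromosome 3 genes against that of the chromosome 5 genes in each liver, both relative to the WT mean; filled symbols use all 5 chromosome 5 genes, open symbols leave out *Gbp8*, and a line joins both values of a liver. Open symbols of the *Casp8*-/- *Tnfr1*-/- livers lie within 0.28 of the line of equal change, and filled ones lie below it. Both kinds of symbol include *Gbp10*, which had 3 reads in replicate 3 of *Casp8*-/- *Tnfr1*-/-.

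Other *Gbp* genes of the annotation lie in the same clusters. *Gbp11* (ENSMUSG00000092021, chromosome 5, 105323042 to 105346472), annotated as a polymorphic pseudogene, measured 0.547 to 0.932 CPM in the 8 other livers and 4.64, 4.78 and 6.72 CPM in *Casp8*-/- *Tnfr1*-/- livers. It rose by a log2 fold change of 3.13 ± 0.321 against WT (SE; edgeR adjusted p = 0.000693), although 19.2% of its 50-base stretches recur in other genes. *Gbp2b* (ENSMUSG00000040264, chromosome 3, 142594847 to 142619179) did not share this pattern. It had 1 to 2 reads in WT livers, 18, 14 and 3 in *Casp8*-/- *Mlkl*-/- livers and 7, 0 and 0 in *Casp8*-/- *Tnfr1*-/- livers, and its log2 fold change of 0.29 against WT had a 95% interval of -2.41 to 2.98. The *Casp8*-/- *Tnfr1*-/- livers overlap the others. The *Casp8*-/- *Mlkl*-/- livers, at 0.115 to 0.73 CPM, were above every WT and *Tnfr1*-/- liver, which reached at most 0.0838 and 0.109 CPM. The 0.115 CPM stand for 3 reads and the 0.109 CPM for 4 reads in a deeper library, so that margin rests on scaling. Summed over livers, *Casp8*-/- *Mlkl*-/- had 35 reads against 5 in WT, a CPM-scaled ratio of 6.18 with a 95% counting interval of 2.41 to 20.2. The log2 fold change of 2.56 ± 1.05 was not called (SE; edgeR adjusted p = 0.875). *Gbp2-ps* was listed at 0 in every liver.

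The patterns most like those of single GBP genes were sought among all 17243 genes tested, outside the family, by the mean absolute difference of log2 CPM centred on each gene's mean over the 11 livers. They were *Ifih1* for *Gbp2* (difference 0.11), *Irgm2* for *Gbp7* (0.15), *Dhx58* for *Gbp3* (0.18), *Bst2* for *Gbp5* (0.25), *Trim30d* for *Gbp9* (0.16), *Parp3* for *Gbp4* (0.25), *Slfn5* for *Gbp6* (0.22) and *Mx1* for *Gbp10* (0.48). The median difference over genes was between 1.05 and 1.26 for these members. For *Gbp8* the nearest gene was *Marveld2* (0.1), where the median gene was at 0.38, and 16615 genes were nearer to *Gbp8* than its nearest family member, *Gbp6*. In the other members at most 13 genes were nearer than the nearest family member.

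The IRGs, the partner GTPase family, rose as a group. All 11 of the family's tested genes, of 12 listed, were called higher against WT, with a median log2 fold change of 3.79, and 8 and 3 of 11 were higher against *Tnfr1*-/- and *Casp8*-/- *Mlkl*-/-. *Tgtp1* and *Tgtp2* are near copies of each other, so the split of their reads is uncertain. *Tgtp2* had at most 2 reads in a WT liver and was at 6.95 to 13.3 CPM in *Casp8*-/- *Tnfr1*-/- livers. *Tgtp1* rose by a log2 fold change of 6.22 ± 0.871, *Iigp1* by 4.95 ± 1.11 and *F830016B08Rik* by 4.51 ± 0.941 (SE; edgeR adjusted p = 0.00367, 0.0314 and 0.0232). In *Casp8*-/- *Mlkl*-/- livers *Iigp1* ranged from 3.72 to 92.7 CPM, which overlaps the 50.6 to 72.1 CPM of *Casp8*-/- *Tnfr1*-/- livers. None of the 11 IRGs was called in *Casp8*-/- *Mlkl*-/- against WT by edgeR, where 10 had an unadjusted p under 0.05. DESeq2 called 4 there, limma-voom none and limma-voom with quality weights 5.

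Among 15 giant inducible and other dynamin superfamily GTPases, 5 were higher against WT and the median log2 fold change was -0.04. The 5 genes are interferon-inducible: *Gvin1* (3.87 ± 0.783, log2 fold change and SE), *Mx2* (3.7 ± 0.418), *Mx1* (3.30 ± 0.52), *Gm4070* (3.27 ± 0.787) and, named after its values were seen, *Gm1966* (1.91 ± 0.208), with edgeR adjusted p between 0.000876 and 0.041. *Gvin1*, *Gm4070* and *Gm1966* belong to a multigene family, so their counts are uncertain in the same way. The 10 others, which shape the endoplasmic reticulum, mitochondria and vesicles, did not pass edgeR's test. DESeq2 and limma-voom each called 5 of the 15, and limma-voom with quality weights 7.

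Of 17 transducers of interferon signals, 8 were higher against WT, 5 against *Tnfr1*-/- and 4 against *Casp8*-/- *Mlkl*-/-. *Irf7*, a transcription factor for type I interferon genes, rose by a log2 fold change of 4.67 ± 0.344, and *Usp18*, which removes ISG15 and restrains the type I interferon receptor, by 4.29 ± 0.385 (SE; edgeR adjusted p = 9.08e-05 and 0.000294). *Stat2*, which joins IRF9 in the complex that binds ISREs, was at 32.2 to 34.9 CPM in WT, 39.2 to 65.9 in *Casp8*-/- *Mlkl*-/- and 109.0 to 213.0 in *Casp8*-/- *Tnfr1*-/- livers, a log2 fold change of 2.13 ± 0.281 against WT (SE; edgeR adjusted p = 0.00264). *Irf1* rose by 1.89 ± 0.325 against WT (edgeR adjusted p = 0.00966), while its log2 fold change of 1.31 against *Casp8*-/- *Mlkl*-/- was not called (adjusted p = 0.0826). *Batf2*, a transcription factor that acts with IRF1, rose by 2.49 ± 0.476 against WT (edgeR adjusted p = 0.0157).

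The interferon genes *Ifng* and *Ifnb1* were near 0 in these libraries. *Ifng*, the ligand with the strongest effect on GBP genes, had at most 3 reads in any liver, and *Ifnb1* at most 1, so neither was tested and no difference was detectable at this depth. Of 6 ligand and receptor genes tested, of 11 listed, 2 were higher against WT, both receptor chains. *Ifnlr1*, of the interferon-lambda receptor, rose by a log2 fold change of 3.55 ± 0.714, and *Ifngr2*, of the interferon-gamma receptor, by 0.85 ± 0.184 (SE; edgeR adjusted p = 0.0196 and 0.0262).

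Downstream of GBPs, 4 of 8 inflammasome genes that act with caspase-11 were higher against WT, 4 against *Tnfr1*-/- and 3 against *Casp8*-/- *Mlkl*-/-. *Casp4*, which encodes mouse caspase-11, was at 0.691 to 1.3 CPM in WT and 9.6 to 38.6 CPM in *Casp8*-/- *Tnfr1*-/- livers, a log2 fold change of 4.43 ± 0.599 (SE; edgeR adjusted p = 0.00305). *Gsdmd*, the pore-forming gasdermin D, rose by 1.62 ± 0.225, *Casp1* by 1.39 ± 0.209 and *Il1b* by 4.25 ± 0.651 (SE; edgeR adjusted p = 0.00355, 0.00544 and 0.00586). Of 14 genes for prenylation and ATG8 conjugation, which place GBPs on membranes, none was called against WT by edgeR and 2 had an unadjusted p under 0.05. DESeq2 called 1, limma-voom none and limma-voom with quality weights 5, and the median log2 fold change was 0.07.

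Markers of cells that can express GBPs did not all move in the same direction as the family. The summed CPM of 12 macrophage markers was 472 to 609 in WT, 537 to 575 in *Tnfr1*-/-, 622 to 1500 in *Casp8*-/- *Mlkl*-/- and 289 to 471 in *Casp8*-/- *Tnfr1*-/- livers. Against WT 1 of the 12 was called higher by edgeR in *Casp8*-/- *Tnfr1*-/- livers (*Cd68*, log2 fold change 0.9) and 2 lower (*Clec4f*, -4.23, and *Marco*, -1.51). The median log2 fold change was -0.55, with 4 of 12 above 0. In either direction DESeq2 called 6 of the 12, limma-voom 2 and limma-voom with quality weights 9. Against *Casp8*-/- *Mlkl*-/- livers 3 were called lower by edgeR and none higher, with a median of -1.54. The 1500 CPM belong to replicate 1 of *Casp8*-/- *Mlkl*-/-, in which 7 of 9 members were at the highest value of their genotype, all but *Gbp4* and *Gbp10*. T, NK and innate lymphoid markers, the cells that make interferon-gamma, summed to at most 14.3 CPM in WT, 9.15 to 37.0 in *Casp8*-/- *Mlkl*-/- and 11.2 to 19.5 CPM in *Casp8*-/- *Tnfr1*-/- livers. *Cd3e* was at 0 in every *Tnfr1*-/- and *Casp8*-/- *Tnfr1*-/- liver, and *Eomes* in every WT and *Casp8*-/- *Tnfr1*-/- liver. None of the 7 tested was called against WT by edgeR, 1 had an unadjusted p under 0.05, and limma-voom with quality weights called 3 where DESeq2 and limma-voom called none.

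Neutrophil markers were also higher against WT. Their summed CPM over 10 genes was 1070 to 1550 in WT, 1290 to 1330 in *Tnfr1*-/-, 1230 to 3370 in *Casp8*-/- *Mlkl*-/- and 5140 to 14800 in *Casp8*-/- *Tnfr1*-/- livers, and 6 of 10 were called higher against WT, among them *Cxcr2*, *S100a9*, *S100a8* and *Ltf* (log2 fold changes 4.06, 3.53, 3.31 and 3.27). Against *Tnfr1*-/- livers 1 of 10 was called higher by edgeR, and against *Casp8*-/- *Mlkl*-/- livers none, where 7 had an unadjusted p under 0.05, DESeq2 called 6, limma-voom 2 and limma-voom with quality weights 9. The highest sum was in replicate 3 of *Casp8*-/- *Tnfr1*-/-, in which the chromosome 3 members were at their lowest of the 3 livers and *Gbp9* at its highest. Of 10 endothelial markers only *Pecam1* was called higher (log2 fold change 1.30, edgeR adjusted p = 0.0449), and limma-voom called 0. Endothelial markers summed to 429 to 475 CPM in WT and to 473, 426 and 865 CPM in *Casp8*-/- *Tnfr1*-/- livers, the last in replicate 3. The part of these cell types in the GBP values was not tested. With replicate 3 of *Casp8*-/- *Tnfr1*-/- left out, 8 of 9 members were called against WT, among them *Gbp10*, and 1239 of 17027 genes were called higher. The median log2 fold change of the members was 2.99.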

How the data were processed

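RNA of 11 fetal livers was measured. Reads were single-end, and the authors used GSNAP, GRCm38 and uniquely mapped reads. The deposited table of each liver holds the raw count of reads on the exons of each gene and a width in bases, which the authors deposited as a length per gene and which was used for values per kb. The counting tool, the annotation release and the use of strand are not given in the sources used here. The labels and the paper's methods name different library kits and sequencers. The deposited RPKM values were not used. Names and positions came from GENCODE M21, which named 52489 of 52636 genes.

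Genes were kept by filterByExpr (minimum count 10), which left 17243, and scaled by TMM. The 4 genotypes were fitted together with edgeR 4.0.16 (glmQLFit, glmQLFTest), with Benjamini-Hochberg adjustment over all genes and a threshold of 0.05. Libraries held 23129212 to 35819339 reads. Replicates varied with a common biological coefficient of variation of 33.3%. A prior count of 2 went into log2 CPM. Scripts were tested on simulated data. The members and gene lists were chosen with earlier results of these data known. Named are all members, other *Gbp* genes, up to 4 called genes of each list with the largest fold change, *Ifng*, *Ifnb1*, *Irf1*, and the gene nearest to each member. 1 gene of the list of interferon signal transducers is not reported here and was left out of its counts. Alternatives were DESeq2's size factors, hemoglobin genes left out, DESeq2 1.42.0, limma-voom (limma 3.58.1) without and with quality weights, other filters, only the genotypes compared, the replicate number as a block, *Gbp6* and *Gbp10* summed, and each liver left out. Leaving out both livers with low TMM factors was added after seeing the data.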

Additional observations from a re-analysis of the deposited data

How the results depend on the processing

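Over 22 alternatives, 966 values of single members in the 5 comparisons were recomputed, of which 883 kept their direction and their side of the threshold, 45 lost a call, 21 gained one and 17 changed sign. Against WT no call of the 7 members in *Casp8*-/- *Tnfr1*-/- livers was lost in any alternative. When a liver of a genotype other than *Tnfr1*-/- was left out, 7 to 8 members were called, beside 270 to 1297 of all genes. Against *Tnfr1*-/- the count of members called was 2 with only the genotypes compared and 6 to 8 when a liver of the other genotypes was left out. Of all genes, 53 were called higher in the former fit and 218 to 759 in the latter ones. Without *Tnfr1*-/- replicate 1 or replicate 2 the median log2 fold change of the members was 2.85 and 2.93. *Gbp6* lost its call there in 10 of 22 alternatives. Against *Casp8*-/- *Mlkl*-/- the count of members called was 0 with only the genotypes compared, where 10 of all genes were called higher. It was 2 to 7 when a liver of a genotype other than *Tnfr1*-/- was left out, where 71 to 518 of all genes were. *Gbp7* lost its call in this comparison in 10 of 22 alternatives. There the median log2 fold change of the members was 2.21 with quality weights and 2.24 without both livers with low TMM factors. For *Casp8*-/- *Mlkl*-/- against WT the count was 2 under DESeq2's Wald test, with quality weights, and without both livers with low TMM factors. Of all genes, 79, 551 and 547 were called higher there. In *Casp8*-/- *Tnfr1*-/- against WT the main fit called 879 of 17243 genes higher, DESeq2 1775 and quality weights 2934. Fewer livers per fit leave fewer degrees of freedom. Otherwise the cause was not tested.

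All changes of sign were in values that were never called. *Gbp8* (log2 fold change) in *Casp8*-/- *Tnfr1*-/- against *Tnfr1*-/- lay between -0.10 and 0.24 when a liver was left out. Against *Casp8*-/- *Mlkl*-/- it lay between -0.45 and 0.09 then, and it was 0.15 with quality weights and 0.21 without both livers with low TMM factors. When a liver was left out, *Gbp10* in *Casp8*-/- *Mlkl*-/- against WT lay between -0.54 and 1.07, and in *Tnfr1*-/- against WT between -3.63 and 0.04. In *Tnfr1*-/- against WT the range was -0.15 to 0.25 for *Gbp7*, -0.13 to 0.19 for *Gbp3* and -0.23 to 0.12 for *Gbp2*. There *Gbp7* was -0.0095 with quality weights and *Gbp3* was -0.0026 without both livers with low TMM factors.

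Replicate numbers did not pair the livers: the correlation of deviations between livers with the same number was between -0.297 and 0.275, and over 0.1 in 4 of 15 pairs. With the replicate block 7 members were called higher against WT, 6 against *Tnfr1*-/- and 6 against *Casp8*-/- *Mlkl*-/-. Of 17243 genes, 532, 182 and 130 were called higher in these comparisons. *Gbp7* and *Gbp3* in *Tnfr1*-/- against WT were at -0.12 and -0.08 with the block. Depth limits *Gbp10*, *Gbp2b*, *Ifng* and *Ifnb1*, which had few or no reads in most livers.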
